A study of Mus musculus with 6 samples.

Results

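The 10 genes described here encode the aryl hydrocarbon receptor (AhR), its partner and repressor, 4 of its target genes and 3 enzymes that consume kynurenine. They are the rows of the count table whose symbol is Ahr, Arnt, Ahrr, Cyp1a1, Cyp1b1, Tiparp, Aldh3a1, Kyat1, Kyat3 or Kynu, 10 of the 22116 rows that carry a gene name. All 10 were found, once each. RNA-seq was performed on 4T1 cells, a mouse mammary carcinoma line used as a model of triple-negative breast cancer, after 24 h in DMSO, the solvent control, or in 10 µM P3FI-90, an inhibitor of the histone H3K9 demethylase KDM3B, with 3 libraries per group. All 6 libraries come from this one line in culture, so there are no animals and no host cells. The labels do not say whether the 3 libraries of a group came from separate cultures, so errors and p-values cover only the spread between these libraries, which may be technical. The genes were chosen by their pathway with earlier results of the same contrast known, among them the measured fold change of Kyat3, so their own fold changes are given as a description.

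AhR is a transcription factor that waits in the cytosol in a complex with HSP90 and its co-chaperones. Small aromatic molecules release it, among them pollutants and tryptophan metabolites such as kynurenine and kynurenic acid. It then enters the nucleus, pairs with ARNT and binds xenobiotic response elements in the DNA of its targets. Cytochrome P450 genes such as Cyp1a1 and Cyp1b1 are its classical targets, and the products of the targets Ahrr and Tiparp dampen the receptor in return. Kynurenine is made from tryptophan by IDO or TDO enzymes. The aminotransferases encoded by Kyat1 and Kyat3 turn it into kynurenic acid. Kynureninase, encoded by Kynu, splits kynurenine, and also its hydroxylated form on the way to NAD.

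The DNA before the transcription start is shown for 5 genes as examples, and the core motif of the receptor is marked in it. The core of the xenobiotic response element is GCGTG, read as CACGC on the other strand, and it contains the CGTG that hypoxia-inducible factors also use. Each sequence covers the 250 bases before a RefSeq start on build GRCm38.p6, written 5′ to 3′ on the strand of the gene, and capitals mark the core in either direction. The windows are chr3:142700798-142701047, plus strand, for Kyat3, chr2:30205848-30206097, minus strand, for Kyat1, chr17:79715062-79715311, minus strand, for Cyp1b1, chr9:57697363-57697612, plus strand, for Cyp1a1, and chr3:65528197-65528446, plus strand, for Tiparp.
Kyat3: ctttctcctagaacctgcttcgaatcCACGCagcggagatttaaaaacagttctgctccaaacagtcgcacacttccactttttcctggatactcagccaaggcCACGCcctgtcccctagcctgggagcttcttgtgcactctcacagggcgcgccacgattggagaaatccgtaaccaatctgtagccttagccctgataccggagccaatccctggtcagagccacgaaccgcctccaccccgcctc
Kyat1: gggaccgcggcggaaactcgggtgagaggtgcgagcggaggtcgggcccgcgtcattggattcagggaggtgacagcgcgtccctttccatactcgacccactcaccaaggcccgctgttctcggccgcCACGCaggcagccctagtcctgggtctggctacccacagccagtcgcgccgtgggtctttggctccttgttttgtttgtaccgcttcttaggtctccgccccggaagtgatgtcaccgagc
Cyp1b1: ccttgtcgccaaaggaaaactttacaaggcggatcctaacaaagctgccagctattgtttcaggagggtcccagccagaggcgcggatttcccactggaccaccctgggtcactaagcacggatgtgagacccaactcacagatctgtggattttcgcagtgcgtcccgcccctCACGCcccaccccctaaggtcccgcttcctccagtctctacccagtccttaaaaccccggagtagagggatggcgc
Cyp1a1: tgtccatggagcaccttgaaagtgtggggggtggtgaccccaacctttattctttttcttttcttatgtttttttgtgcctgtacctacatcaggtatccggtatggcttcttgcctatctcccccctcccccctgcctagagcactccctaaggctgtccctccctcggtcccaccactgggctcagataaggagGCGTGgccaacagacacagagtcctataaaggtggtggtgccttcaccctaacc
Tiparp: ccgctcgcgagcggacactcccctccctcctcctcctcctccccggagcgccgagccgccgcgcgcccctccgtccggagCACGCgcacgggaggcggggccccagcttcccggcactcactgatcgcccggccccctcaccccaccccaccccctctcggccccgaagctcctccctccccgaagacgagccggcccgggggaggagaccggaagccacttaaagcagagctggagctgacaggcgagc

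Of the 10 genes, 7 have an entry in the RefSeq promoter table used here, and Ahr, Aldh3a1 and Kynu do not. All 7 windows held the core at least once, compared with 28.2% of 32851 RefSeq windows of the same length. The windows of these genes were richer in G and C, at 53.6% to 75.2%, than the median window, at 52.4%. Kyat3 had 2 cores, starting 224 and 146 bases before the start, and Ahrr had 3, starting 107, 82 and 27 bases before it. Arnt, Cyp1a1, Cyp1b1, Tiparp and Kyat1 had 1 each. The longer form TNGCGTG, searched on both strands, was found in 1 of the 7 windows, that of Ahrr, and in 4.10% of all windows. Genes on either side of the comparison held the core: Kyat3, Kyat1 and Cyp1b1, which were lower after P3FI-90, and Tiparp, Arnt and Cyp1a1, which were higher. A match is a stretch of letters and no measurement of binding. Only the 250 bases before the start were searched, so sites of the receptor elsewhere are not covered.

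**Figure D1:**
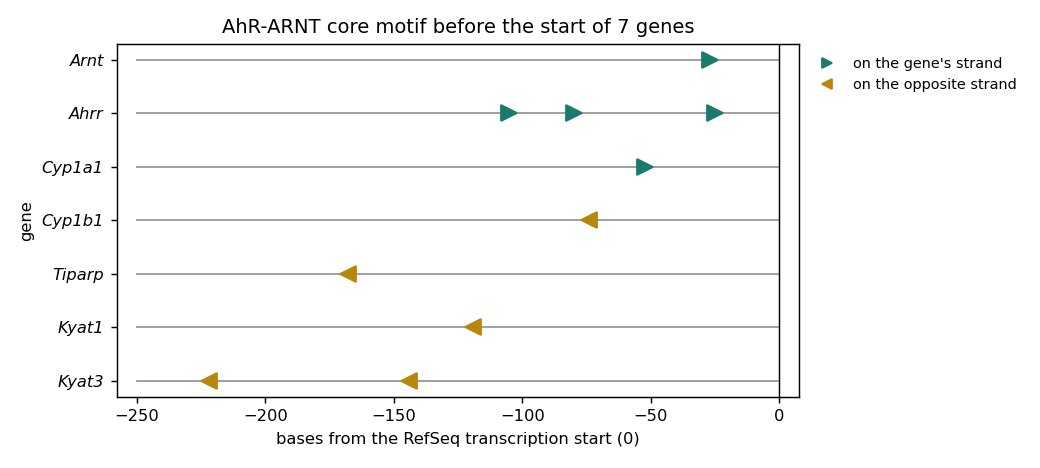
Positions of the core GCGTG in the 250 bases before the RefSeq start of 7 genes, with distance from the start in bases on the horizontal axis and 1 line per gene. Arrows to the right mark matches on the strand of the gene and arrows to the left matches on the opposite strand. Ahrr carries 3 matches, Kyat3 carries 2 and the others 1.

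Libraries held 31327094 to 37395732 counts on rows with a gene name, and 12288 genes passed the filter on low counts. Counts are printed as normalized counts, which are scaled by edgeR's TMM method to a common library size. Of the tested genes, 9749 (79.3%) passed an adjusted p of 0.05 in the quasi-likelihood test of edgeR, 4908 higher (39.9%) and 4841 lower (39.4%) after P3FI-90. Scaling by total counts alone raised the median log2 fold change of all genes from 0.01 to 0.23 and gave 6179 higher and 3641 lower genes. The mammary epithelial markers fell together, 8 of 8, with a summed level of 4522 to 4770 CPM (counts scaled to library size) in DMSO and 1970 to 2063 after P3FI-90, and their part in the results below was not tested. Leukocyte markers summed to 11.3 to 14.2 CPM in DMSO and 11.5 to 14.6 after P3FI-90, with Adgre1 at 0 in every library, and of the 3 tested only Csf1r changed, upwards. Stromal and endothelial markers summed to 40.6 to 41.0 and 29.1 to 32.0 CPM. Of the 3 tested, Pdgfra was called lower and Col1a1 neither. Pecam1 was called higher, at 0, 0 and 13 reads in the DMSO libraries and 20, 17 and 27 in the P3FI-90 libraries. It entered the test only through the P3FI-90 group. The progesterone receptor gene Pgr was at 0 in every library, whereas Esr1 and Erbb2 were detected at 293 and 2703 normalized counts in DMSO. In bulk RNA, fewer cells of a kind and less RNA per cell cannot be told apart. Kdm3b, the gene of the inhibited enzyme, had 2851 ± 67.4 normalized counts in DMSO and 3109 ± 55.7 after P3FI-90 (SD, n = 3), which is a log2 difference of 0.13 (SE 0.043), with an adjusted p of 0.0169 from edgeR, and this call was lost in 4 of 14 alternatives. An enzyme inhibitor need not change the RNA of its target, so this is no check of the treatment.

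The receptor and its partner rose together, while the repressor stayed near the limit of detection. Ahr (ENSMUSG00000019256) had 907, 854 and 869.5 normalized counts in the DMSO libraries and 2204, 2038 and 2238 in the P3FI-90 libraries. The groups did not overlap, and the mean went from 877 ± 27.1 to 2160.1 ± 107 (SD, n = 3), which is a log2 difference of 1.30 (SE 0.057), or 2.46-fold. Arnt (ENSMUSG00000015522), the obligate partner of AhR on DNA and also of the hypoxia-inducible factors, had 1997, 2158 and 2121 normalized counts in the DMSO libraries and 3378, 3219.9 and 3468 in the P3FI-90 libraries. Its groups did not overlap either, and the log2 fold change was 0.68 (SE 0.050), or 1.60-fold. Ahrr (ENSMUSG00000021575), which competes with AhR for ARNT, had 6, 0 and 3 reads in the DMSO libraries and 14, 10 and 3 in the P3FI-90 libraries. The groups overlapped and the gene was below the filter, so it was not tested. Over the 3 libraries of each group these are 9 and 27 reads, a ratio of P3FI-90 to DMSO of 2.62 with an exact Clopper-Pearson 95% interval of 1.20 to 6.34, which covers counting error only and treats the libraries as one.

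**Figure D2:**
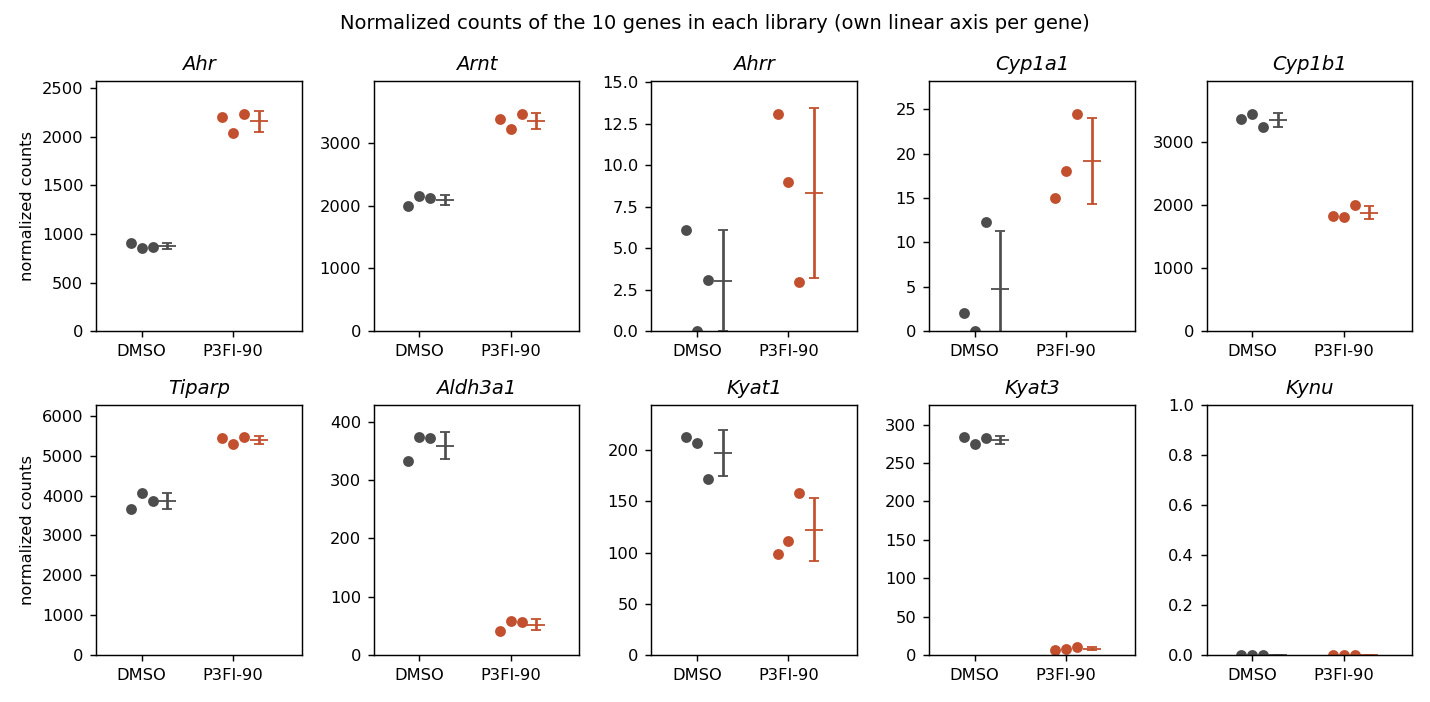
Normalized counts of the 10 genes in each library, on a linear axis from 0 that differs between genes, with 1 point per library and the mean ± SD (n = 3) beside the points. Error bars that would pass below 0 are clipped there. Ahr, Arnt, Tiparp and, at a few counts, Cyp1a1 lie higher after P3FI-90, Cyp1b1, Aldh3a1, Kyat1 and Kyat3 lie lower, Ahrr overlaps and Kynu is at 0 throughout.

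The 4 target genes did not move in 1 direction: Tiparp and Cyp1a1 were higher, and Cyp1b1 and Aldh3a1 were lower. Tiparp (ENSMUSG00000034640), a mono-ADP-ribosyltransferase that acts on AhR as negative feedback, had 3660.3, 4066 and 3855 normalized counts in the DMSO libraries and 5439, 5294 and 5463 in the P3FI-90 libraries. All P3FI-90 libraries lay above all DMSO libraries, and the log2 fold change was 0.48 (SE 0.041), or 1.40-fold. Cyp1b1 (ENSMUSG00000024087), a cytochrome P450 that oxidises steroids and polycyclic hydrocarbons, had 3375, 3454 and 3241 normalized counts in the DMSO libraries and 1830.2, 1817 and 2003 in the P3FI-90 libraries. It fell without overlap from 3357 ± 107 to 1884 ± 104 (SD, n = 3), which is a log2 difference of −0.83 (SE 0.052). Aldh3a1 (ENSMUSG00000019102), which oxidises medium-chain and aromatic aldehydes, had 333, 373 and 371 normalized counts in the DMSO libraries and 41.2, 58.4 and 55.8 in the P3FI-90 libraries. This was the larger fall of the pair, 6.91-fold with a log2 fold change of −2.79 (SE 0.17), the 64th lowest among 12288 genes.

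Cyp1a1 (ENSMUSG00000032315), the gene most often read as a reporter of AhR activity, was barely detected. It had 2, 0 and 12 reads in the DMSO libraries and 16, 20 and 25 in the P3FI-90 libraries. The libraries did not overlap, but the highest DMSO library, the third, held 12 of the 14 DMSO reads. The fitted log2 fold change was 1.92 (SE 0.75), and it ranged from 1.40, without the second DMSO library, to 3.98, without the third. The call was kept in 8 of 13 alternatives and lost without the first or the second DMSO library, without the second or the third P3FI-90 library, and with no filter on low counts. The gene entered the test only through the P3FI-90 group, where its counts are higher. It shares 3.43% of its 50-base transcript windows with Cyp1a2, which was at 0 in every library.

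Among the kynurenine enzymes, Kyat3 fell most and Kyat1 less, and Kynu was not detected. Kyat3 (ENSMUSG00000040213) had 283, 275 and 283 normalized counts in the DMSO libraries and 6.55, 8.09 and 9.80 in the P3FI-90 libraries. The DMSO libraries differed little from each other, and the P3FI-90 libraries held 7, 9 and 10 reads. The mean went from 280.2 ± 4.88 to 8.15 ± 1.62 (SD, n = 3), 33.99-fold lower with a log2 fold change of −5.09 (SE 0.23), the 8th lowest of 12288 genes. Kyat1 (ENSMUSG00000039648), whose enzyme carries out the same transamination and also acts on glutamine and on cysteine conjugates, had 213, 207 and 171 normalized counts in the DMSO libraries and 98.2, 111 and 158 in the P3FI-90 libraries. Its groups did not overlap, but the third P3FI-90 library, at 158, was close to the lowest DMSO library, at 171. The log2 fold change was −0.69 (SE 0.20). It was −0.91 without the third P3FI-90 library and −0.47 under scaling by total counts, and it stayed past the threshold in 14 of 14 alternatives. Kynu (ENSMUSG00000026866) had 0 reads in all 6 libraries, which allows up to 3 reads, or 0.0802 to 0.0958 CPM per library.

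The ratio of both aminotransferases within a library does not depend on how libraries are scaled. Per length, Kyat3 made up 29.1%, 28.9% and 33.6% of the summed level of Kyat1 and Kyat3 in the DMSO libraries and 2.01%, 2.18% and 1.87% in the P3FI-90 libraries. The mean share was 30.5% ± 2.67 and 2.02% ± 0.155 (SD, n = 3). Without division by length, on the reads themselves, it was 58.8% ± 2.99 and 6.29% ± 0.461. On these reads the exact Clopper-Pearson 95% interval ran from 51.99% to 61.9% in the second DMSO library, the lowest of its group, and from 3.14% to 12.5% in the second P3FI-90 library, the highest of its group. With the longest transcript as the length it ran from 39.3% to 44.6% in DMSO and from 2.95% to 3.43% after P3FI-90, without overlap.

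**Figure D3:**
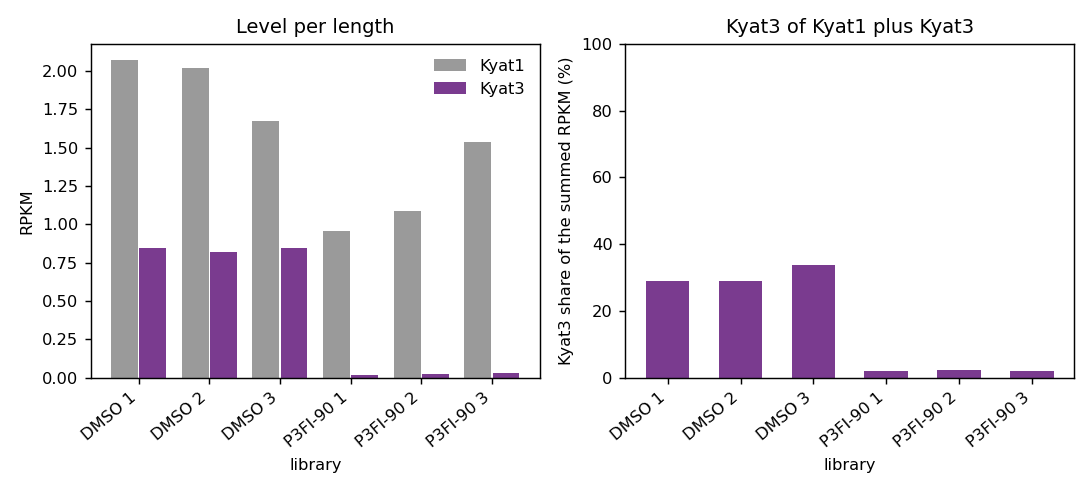
Left, RPKM of Kyat1 and Kyat3 in each of the 6 libraries; right, the share of Kyat3 in their summed RPKM in percent, as bars from 0. Kyat3 holds 28.9% to 33.6% of the sum in DMSO and 1.87% to 2.18% after P3FI-90.

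Levels of different genes were compared as RPKM, a value scaled both to sequencing depth and to the length of the union of annotated exons. In DMSO the order was Tiparp at 25.3 ± 1.33, Cyp1b1 at 16.4 ± 0.525, Arnt at 7.45, Aldh3a1 at 5.28, Ahr at 4.06, Kyat1 at 1.92 and Kyat3 at 0.840 RPKM (mean ± SD where shown, n = 3). Each of these was apart from its neighbour in all 3 libraries. Below them, Cyp1a1 at 0.0487 and Ahrr at 0.00920 RPKM overlapped each other, and Ahrr overlapped Kynu at 0. After P3FI-90 the level of Tiparp was again the highest, at 35.3 ± 0.599 RPKM, followed by Arnt at 11.95. Ahr moved up to the third place at 10.00 RPKM and overlapped Cyp1b1 at 9.20, which had moved down. Kyat1 at 1.20, Aldh3a1 at 0.761 and Cyp1a1 at 0.196 RPKM came next, and Kyat3 at 0.0244 could not be separated from Ahrr at 0.0252. Dividing by the longest transcript in place of the exon union kept all 10 ranks in DMSO and exchanged Ahrr and Kyat3 after P3FI-90.

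**Figure D4:**
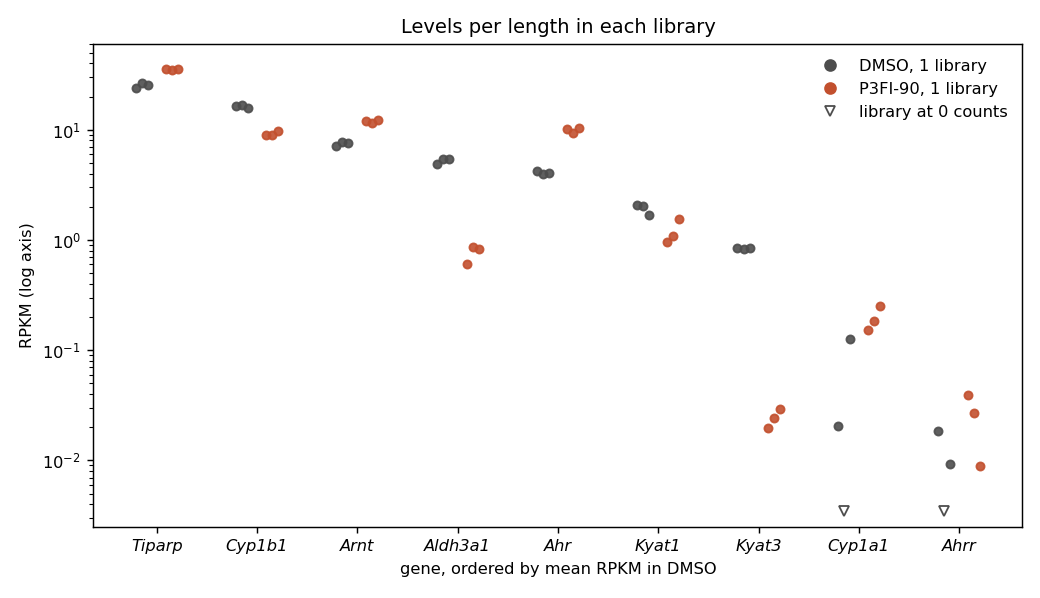
RPKM of 9 genes in each library on a log axis, ordered by the mean in DMSO, with 1 point per library and open triangles for libraries at 0 reads, drawn at the bottom. Kynu, at 0 everywhere, is left out. Kyat3 drops from 0.840 to 0.0244 RPKM and Ahr rises from 4.06 to 10.00 RPKM.

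In all, 8 of the 10 genes entered the test, and 4 were past the threshold as higher (Ahr, Arnt, Tiparp and Cyp1a1) and 4 as lower (Kyat3, Aldh3a1, Cyp1b1 and Kyat1), where 79.3% of all tested genes were past it. The groups did not overlap for any of these 8, as for 81.2% of all tested genes. The same contrast was known when the genes were chosen, so nothing is read from this count. The signs of the 8 fold changes were the same under the 4 scalings of the libraries.

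Genes of other proteins that hold or accompany AhR were examined next, as lists of pathway genes. The partner list also holds other genes of the bHLH-PAS family of AhR, among them Bmal1, Bmal2, Clock and Hif1a. Its counts and median therefore do not describe partners of AhR alone. Of the 16 genes of this list, 11 were tested, 5 were higher and 6 lower, where 79.3% of all tested genes were called. Their median log2 fold change was −0.12, against 0.01 for all genes. The HSP90 genes and a co-chaperone gene were on the lower side. Hsp90ab1, the constitutive HSP90 gene, had 180143, 182832 and 179718 normalized counts in the DMSO libraries and 58055, 59468 and 58443 in the P3FI-90 libraries, with a log2 fold change of −1.62 (SE 0.021), with an adjusted p of 5.45e-16 from edgeR. Hsp90aa1, the inducible HSP90 gene, had a log2 fold change of −0.85 (SE 0.030), and Ptges3, an HSP90 co-chaperone, of −1.24 (SE 0.046), with adjusted p-values of 5.73e-12 and 1.03e-11 from edgeR. The coactivator genes Ncoa1, Ncoa2 and Ncoa3 were higher, with log2 fold changes of 1.77, 0.80 and 0.22, and Clock rose by 1.30 on that scale (SE 0.044, adjusted p = 3.52e-12 from edgeR). Clock belongs to the same bHLH-PAS family as AhR, and other genes of that family lay on both sides. Bmal1 had a log2 fold change of 0.43 (SE 0.070) and Bmal2 of −1.37 (SE 0.10), and Hif1a had −0.12 (SE 0.039), which turned to 0.0911 under scaling by total counts. Arnt2, the neuronal relative of Arnt, had 0 reads in DMSO and 17 over the P3FI-90 libraries, none of them in the third, so the groups overlapped. Over the groups it was at least 4.95-fold higher against a floor of 3 reads per group, with the 17 reads taken as exact. Npas2 had 0 reads in DMSO and 6 in 1 P3FI-90 library, and Sim1 was at 0 in every library.

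Further targets of AhR also lay on both sides of 0. Of 15 genes listed, 10 were tested, with 3 higher and 7 lower, a median log2 fold change of −0.27 and the groups apart for all 10, beside 79.3% called and 81.2% apart among all tested genes. Under scaling by total counts the split was 3 higher and 3 lower. Cyp1a2, Ugt1a6a, Ugt1a6b and Ereg were at 0 in every library. Nqo1, a quinone reductase that NRF2 also controls, had 806, 872 and 845 normalized counts in the DMSO libraries and 246, 214 and 202 in the P3FI-90 libraries, a log2 fold change of −1.93 (SE 0.099), with an adjusted p of 2.87e-10 from edgeR. The NRF2 gene itself, Nfe2l2, went from 5325 ± 104 to 3291 ± 125 normalized counts (SD, n = 3), which is a log2 difference of −0.69 (SE 0.040). Ccng2 had a log2 fold change of −0.28 (SE 0.058), whose call was lost under scaling by total counts (adjusted p = 0.300 from edgeR, where the other 13 alternatives kept it). On the higher side, Ptgs2, the inducible cyclooxygenase, went from 7740.4 ± 122 to 15678 ± 575 normalized counts (SD, n = 3), which is a log2 difference of 1.02 (SE 0.035), with an adjusted p of 4.76e-12 from edgeR. Serpinb2, an inhibitor of plasminogen activators, rose by 2.42 on the log2 scale (SE 0.19).

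Of 26 further genes of the tryptophan and NAD pathway, 12 passed the filter on low counts and 14 did not. The latter included the enzymes that open the tryptophan ring. Ido1 was at 0 in every library, and Tdo2 had 17 reads in DMSO and 3 after P3FI-90, each summed over 3 libraries. Ido2 had 0, 0 and 4 reads in the DMSO libraries and 26, 10 and 0 in the P3FI-90 libraries, so its groups overlapped. Kmo, which hydroxylates kynurenine and so draws on the same pool as the aminotransferases, had 4, 6 and 9 reads in the DMSO libraries and 0, 0 and 0 in the P3FI-90 libraries, at least 7.25-fold lower against a floor of 3 reads over the group, with the 19 DMSO reads taken as exact. With counting error in both groups, the exact 95% interval of the ratio of P3FI-90 to DMSO reached up to 0.187. Haao was at 0 after P3FI-90 with 1 read in DMSO. Aadat, the aminotransferase also called KYAT2, had 0 reads in DMSO and 2 after P3FI-90. Tph1, Tph2, Ddc, Maob and Slc7a8 were likewise at 0 in DMSO, with 2 to 11 reads over the P3FI-90 libraries. Among the 12 tested genes 4 were higher, 4 lower and 4 neither, where 79.3% of all tested genes were called. The median log2 fold change of the 12 was 0.04, against 0.01 for all genes. Under scaling by total counts 7 of the 12 were higher and 2 lower.

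Afmid encodes the enzyme that makes kynurenine from its formyl form, the step before the aminotransferases. It had 323, 378 and 318 normalized counts in the DMSO libraries and 467, 394 and 532 in the P3FI-90 libraries, a log2 fold change of 0.45 (SE 0.13), with an adjusted p of 0.00453 from edgeR. The 3 genes whose enzymes attach adenylate to nicotinamide mononucleotide differed: Nmnat1 and Nmnat3 had log2 fold changes of 0.48 (SE 0.13) and 1.83 (SE 0.15), and Nmnat2 of −1.35 (SE 0.14). Nampt, the entry enzyme of NAD salvage, had 5465 ± 377 and 5657 ± 373 normalized counts (SD, n = 3), with overlapping groups, and it passed the threshold as higher under scaling by total counts alone. Maoa, a monoamine oxidase that degrades serotonin and tryptamine, fell by 1.10 on the log2 scale (SE 0.050, adjusted p = 7.17e-11 from edgeR). The tryptophan and kynurenine transporter is a pair of proteins: its heavy chain gene Slc3a2 had a log2 fold change of 0.58 (SE 0.033), and its light chain gene Slc7a5, which also stands on the AhR target list, of −0.14 (SE 0.039), which turned to 0.0736 under scaling by total counts.

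**Figure D5:**
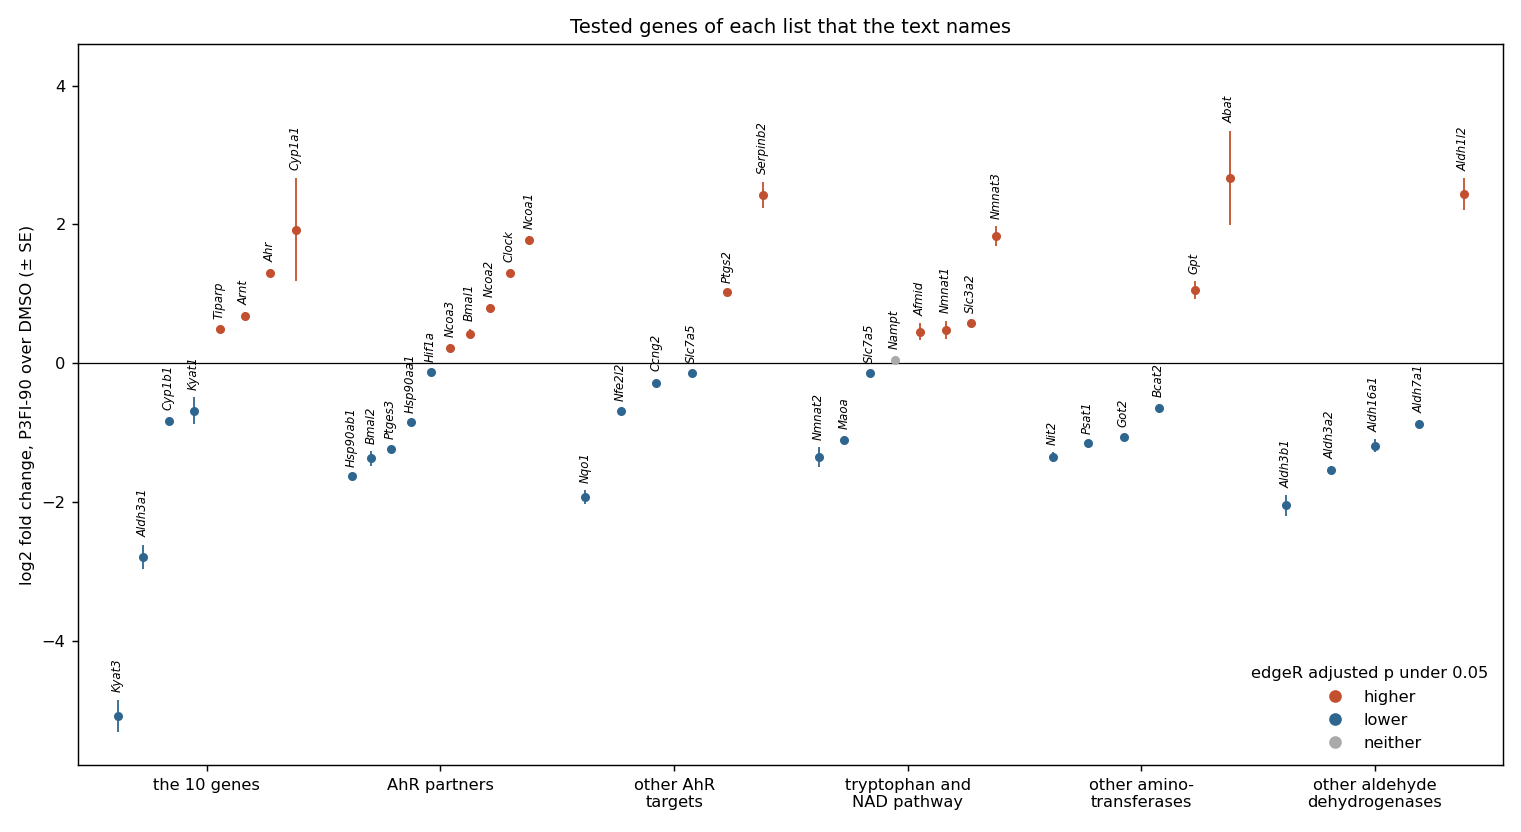
Log2 fold changes (P3FI-90 over DMSO, ± SE) of the tested genes named in the text, from the 10-gene group and 5 related lists, ordered within each list and coloured by whether the adjusted p from edgeR was under 0.05. Kyat3, at −5.09, has the lowest value shown, and each list holds genes on both sides of 0. Slc7a5 appears under both lists that name it.

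Other aminotransferases and the enzymes around them did not share the size of the fall of Kyat3. Kyat3 was chosen with its fall known, the 8th lowest of 12288 genes, so nothing is read from this difference. Of 17 genes, 12 were tested, 4 higher, 7 lower and 1 neither, where 79.3% of all tested genes were called. The median log2 fold change was −0.21, against 0.01 for all genes, with values from −1.35 for Nit2 to 2.67 for Abat. Abat, at 5, 0 and 4 reads in the DMSO libraries and 21, 19 and 27 in the P3FI-90 libraries, entered the test only through the P3FI-90 group and dropped out under the filter of 10 counts in every library. Nit2 encodes the amidase that hydrolyses the keto acid left when KYAT enzymes use glutamine as the amino donor, and it had 1172, 1185 and 1166 normalized counts in the DMSO libraries and 447, 497 and 432 in the P3FI-90 libraries. Its log2 fold change was −1.35 (SE 0.075), with an adjusted p of 6.47e-10 from edgeR. Psat1, of serine synthesis, and Got2, the mitochondrial aspartate aminotransferase that also acts on kynurenine, had log2 fold changes of −1.16 (SE 0.032) and −1.06 (SE 0.032). Bcat2, of branched-chain amino acids, had −0.65 (SE 0.068), and Gpt, an alanine aminotransferase, 1.06 (SE 0.13). Bcat1, Agxt and Agxt2 were at 0 in every library, and Tat was at 0 in DMSO with 6 reads after P3FI-90.

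Other genes of the ALDH3 family were lower as well, Aldh3a2 of the same subfamily as Aldh3a1 and Aldh3b1 of another. Aldh3a2, a fatty aldehyde dehydrogenase, had 3803, 3778 and 3857 normalized counts in the DMSO libraries and 1202, 1325 and 1406 in the P3FI-90 libraries, a log2 fold change of −1.54 (SE 0.057), with an adjusted p of 1.02e-11 from edgeR. Aldh3b1 had 421, 537 and 486 normalized counts in the DMSO libraries and 122, 131 and 94.04 in the P3FI-90 libraries, a log2 fold change of −2.05 (SE 0.15), with an adjusted p of 1.53e-08 from edgeR, and Aldh3b2 was at 0 in every library. Aldh3a2 is also the next protein-coding gene beside Aldh3a1 in RefSeq, while Usp22, on the other side, had a log2 fold change of 0.24 (SE 0.033). Over 19 aldehyde dehydrogenase genes outside the 10, 12 were tested, 4 higher, 6 lower and 2 neither. Among all tested genes 79.3% were called. The median log2 fold change of the list was −0.50, against 0.01 for all genes. Aldh7a1 and Aldh16a1 were also lower, by 0.87 and 1.19 on the log2 scale, and Aldh1l2, the mitochondrial formyltetrahydrofolate dehydrogenase, was higher, with 2.44 (SE 0.23). Aldh8a1, which acts late in the kynurenine pathway, had 0, 0 and 0 reads in the DMSO libraries and 23, 17 and 8 in the P3FI-90 libraries, at least 13.98-fold higher against the floor of 3 reads over the group, with the 48 reads taken as exact. Aldh1a2 and Aldh1a3 were at 0 in DMSO with 2 and 8 reads after P3FI-90, and Aldh1a7 and Aldh1l1 were at 0 throughout.

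The genes whose course over the 6 libraries was nearest to that of Kyat3 were Tspan1, Padi3, Gstm1, Cyp24a1 and Mgp. Nearness was the Euclidean distance between log2 CPM centred on each gene's mean, which was 0.455 for Tspan1 and 0.931 for Mgp, against a median of 5.93 over all tested genes. With only 2 groups, such nearness says mainly that a gene fell by a like amount on this scale. A prior count of 2 was added before the logarithm, which narrows falls to few or no reads. The fitted log2 fold changes were −4.68 (SE 0.24) for Tspan1, −4.71 (SE 0.16) for Padi3 and −4.60 (SE 0.16) for Gstm1. They were −6.18 (SE 0.62) for Cyp24a1 and −8.53 (SE 0.99) for Mgp, against −5.09 for Kyat3. Gstm1, a glutathione transferase, went from 599.6 ± 49.01 to 24.7 ± 2.98 normalized counts (SD, n = 3), and Tspan1, a tetraspanin, from 283 ± 4.01 to 10.96 ± 3.18. Padi3, a protein-citrullinating enzyme, went from 786 ± 47.3 to 29.8 ± 7.74. Cyp24a1 encodes the cytochrome P450 that inactivates vitamin D and went from 77.2 ± 8.46 to 0.980 ± 1.70, and Mgp, matrix Gla protein, from 46.1 ± 16.1 to 0.

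The genes that flank Kyat3 on the chromosome, by RefSeq gene order, had log2 fold changes of −0.73 to 0.43, against −5.09 for Kyat3, and they were looked up after its value was known. On one side lie the guanylate-binding protein genes Gbp2 and Gbp2b, which had 193 ± 8.79 and 153 ± 18.7 normalized counts in DMSO and 177 ± 14.6 and 151 ± 24.4 after P3FI-90 (SD, n = 3). Their log2 fold changes were −0.12 (SE 0.15) and −0.02 (SE 0.18), with adjusted p-values of 0.464 and 0.938 from edgeR. On the other side Gtf2b, a general transcription factor, had a log2 fold change of −0.73 (SE 0.054) and Pkn2, a protein kinase, of 0.43 (SE 0.037). The genes that flank Kyat1 were each called lower, as were 39.4% of all tested genes. Log2 fold changes were −1.43 (SE 0.17) for Endog and −0.82 (SE 0.082) for Spout1. They were −0.21 (SE 0.080) for Lrrc8a and −1.46 (SE 0.33) for Phyhd1, against −0.69 for Kyat1. The sign of Lrrc8a turned under scaling by total counts, and its call was also lost with the replicate block and without the first or the third DMSO library or the third P3FI-90 library. The annotated exons of Kyat3 overlap those of 1 antisense gene, Gm15540, those of Ahr overlap Gm48236 and those of Tiparp the pseudogene 4931440P22Rik, by 264, 127 and 223 bases. None of these is a row of the table, and the strandedness of the counting is not given in the sources used here, so their reads cannot be told apart from those of Kyat3, Ahr and Tiparp. Between 0% and 4.04% of the 50-base transcript windows of the 10 genes occur in another gene.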

How the data were processed

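mRNA libraries were sequenced from 4T1 cells, 3 after DMSO and 3 after P3FI-90. The authors deposited whole-number read counts per gene, without normalization, and their processing notes name CASAVA, HISAT2, StringTie and build GRCm39 without versions. Strandedness and counting settings are not given in the sources used here. Counts of 2 were more frequent (278 to 389 genes per library) than counts of 1 (81 to 131). Whether mates were counted separately was not tested, and intervals and floors cover counting error only.

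Of 22401 rows, 285 assembled transcripts (0.483% to 0.556% of counts) were left out. Genes were filtered with filterByExpr (minimum count 10) and compared with edgeR 4.0.16 (TMM, quasi-likelihood, Benjamini-Hochberg over 12288 genes, two-sided) in R 4.3.3. SEs were derived from the F statistic. With 3 libraries against 3, an exact permutation test of a single gene cannot go below p = 0.1. Exon lengths came from GENCODE M21 and promoters from RefSeq, both on GRCm38. They were matched by identifier or symbol, and coordinates are given for promoter windows only, on that build. Equally numbered libraries did not deviate together (correlations −0.021, 0.015 and 0.0049), so no pairing was used. The members and lists were chosen with earlier results of these data known. Named genes are the 10, Kdm3b, the 5 smallest p of each list, list genes at 0 in a group, the 5 nearest to Kyat3, and genes whose exons overlap the 10. Some genes that this rule covers are not reported here. Other genes named were chosen after their values were seen.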

Additional observations from a re-analysis of the deposited data

How the results depend on the processing

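TMM was exchanged for DESeq2 size factors, total counts or upper quartiles. The filter was dropped or raised to 10 counts in each library. The test was exchanged for DESeq2 1.42.0 or for limma-voom (limma 3.58.1). A replicate block was added, and the 6 libraries were left out one by one. For Ahr, Arnt, Tiparp, Cyp1b1, Aldh3a1 and Kyat1 all 14 kept direction and call, with log2 fold changes of 1.26 to 1.51, 0.64 to 0.90, 0.44 to 0.70, −0.88 to −0.62, −2.89 to −2.58 and −0.91 to −0.47. For Kyat3 13 alternatives gave −5.24 to −4.87, and the filter of 10 counts in every library removed it, as it removed Cyp1a1. None of the 8 tested genes among the 10 changed sign. Other named genes were run under the same alternatives after their values were seen. Under total counts Hif1a (0.0911), Slc7a5 (0.0736), Lrrc8a (0.00552), Gbp2 (0.0936) and Gbp2b (0.198) turned positive, as did Gbp2b with 10 counts in every library (0.00230). Esr1 turned to −0.0240 under upper quartiles. With single libraries left out, Gbp2b ranged from −0.160 to 0.0811, Esr1 from −0.0399 to 0.0672 and Nampt from −6.72e-05 to 0.0998. Of these, Hif1a alone was past the threshold both before and after the turn. The median over all genes ran from −0.03 to 0.23. The replicate block gave 4802 higher and 4722 lower genes in place of 4908 and 4841, and it changed no call of the 10 genes and no count of the 5 lists. Scaling by total counts moved 3 counts of calls by over 1.5 times: other AhR targets had 3 lower in place of 7, and tryptophan and NAD pathway genes had 7 higher in place of 4 and 2 lower in place of 4. The share of Kyat3 moved to 58.8% in DMSO and 6.29% after P3FI-90 without division by length, because the exon union of Kyat3 is 9518 bases and that of Kyat1 2923. At the depth of these libraries Ahrr, Cyp1a1 and Kynu cannot be resolved further.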
